A study of Rattus norvegicus with 4 samples.

Results

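The CC chemokines and their receptors that were followed here are 6 ligand genes, Ccl2, Ccl3, Ccl4, Ccl5, Ccl7 and Ccl20, and 2 receptor genes, Ccr1 and Ccr2. They were found by the gene name that the array files give to each probe, and 9 probes carried such a name, 2 for Ccl7 and 1 for every other gene. The arrays hold 41012 probes for 35655 gene names in all. Expression was measured in the gracilis, a thin muscle of the inner thigh, taken from male Sprague-Dawley rats whose age the labels do not give. The injured muscles had 4 h of ischemia and then 1, 3, 7 or 14 days of reperfusion, and the controls were gracilis muscles of the same strain and sex after a sham operation. Each day was read on 1 Agilent 2-colour array, with cRNA of 1 injured muscle in Cy5 and cRNA of 1 sham muscle in Cy3, and the dyes were not swapped. No value of a single day therefore has a replicate, and a dye effect of a probe cannot be told apart from a difference between the muscles. The labels do not say whether the 4 sham channels hold RNA of the same animal.

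CC chemokines are small secreted proteins with a pair of adjacent cysteines that draw leukocytes out of the blood through receptors coupled to G proteins. Ccl2 and Ccl7 act on Ccr2 and bring monocytes from bone marrow and blood into injured muscle, where macrophages derived from them clear dead fibres. Ccl3, Ccl4 and Ccl5 attract monocytes as well as activated T cells and natural killer cells, and Ccl20 acts on Ccr6 of lymphocytes and dendritic cells.

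The probes are DNA oligonucleotides of 60 bases, and their sequence decides which transcript each value stands for. Of the 9 probes, 5 are printed, those in which at least 1 forward reading frame has no stop. Those of Ccl4, Ccl5, Ccr1 and Ccr2 are the only probes of these genes, whose values rest on them. Ccl2, Ccl3 and Ccl20 rest on 1 probe each too, but these have no open forward frame and are not printed. For Ccl7 the dimmer of its 2 probes is shown, whose ratios are set beside those of the brighter one in the results, and capitals mark the 29 bases that the Ccl7 probe shares with the other probe of that gene.
Ccl7: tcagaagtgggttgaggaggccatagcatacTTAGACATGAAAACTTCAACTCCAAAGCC
Ccl4: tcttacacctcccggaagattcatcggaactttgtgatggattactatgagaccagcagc
Ccl5: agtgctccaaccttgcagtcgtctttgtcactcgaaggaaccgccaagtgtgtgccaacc
Ccr1: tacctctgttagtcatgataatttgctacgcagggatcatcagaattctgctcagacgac
Ccr2: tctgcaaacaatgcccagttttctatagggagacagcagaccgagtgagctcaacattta

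Probes of different genes among the 8 were dissimilar: over the 35 pairs the longest run of identical bases on the same strand was 4 to 8 bases. In the rn4 coordinates of the array files the ligand probes other than Ccl20 lie in 2 groups on chromosome 10. Ccl2 (chr10:70257919-70257978, plus strand) and Ccl7 (chr10:70268643-70268702 and chr10:70268674-70268733, plus strand) are 10.7 kb apart. Ccl5 (chr10:71606089-71609018, minus strand), Ccl3 (chr10:71744611-71744670, minus strand) and Ccl4 (chr10:71760267-71760326, plus strand) follow 1337.4 kb further on, with 135.6 kb between Ccl5 and Ccl3 and 15.6 kb between Ccl3 and Ccl4. The Ccl5 probe covers 2930 bases of the genome with its 60 bases, so it does not match 1 unbroken stretch. Ccl20 is at chr9:82443347-82443406 (plus strand), and Ccr1 (chr8:128694469-128694528, minus strand) and Ccr2 (chr8:128893805-128893864, plus strand) are 199.3 kb apart. Whether a probe lies in an exon or a UTR was not analysed here.

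Each array measured between 22949 and 24468 genes well above background in at least 1 channel. On day 7 the sham channel was the dimmest, with 34.7% of probes well above background, against 41.1% to 47.3% on the other days. The log2 ratio of 40 probes printed 10 times on each array had a median SD of 0.04 to 0.07. The normalized injured level of these probes varied more, with a median SD of 0.14, 0.23, 0.45 and 0.15 on days 1, 3, 7 and 14. Both are noise between spots and not the spread between animals. Day 14 was scanned in a session of its own, apart from the other 3 arrays, so the day and the session cannot be told apart. None of the 9 probes was flagged as an outlier spot on any array. The labelled tissue was checked by 8 markers of skeletal muscle fibres, among them Ckm, Acta1 and Myh4, which were well above background in both channels of every array.

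Of the 8 members 7 were above sham on day 1, and the later days divided them. Ratios are given as log2 of injured over sham. A gene is called higher or lower, and is said to rise or fall, where it differed by 2-fold or more; with 1 array per day this names a size and no test stands behind it. On day 1, 4 of the 8 members were at least 2-fold higher (Ccl2, Ccl7, Ccr1 and Ccr2), where 1.24% of all genes were higher, and 0 were lower, where 4.92% of all genes were. On day 3, 1 was higher (Ccl5) against 2.47% of all genes, and 2 were lower (Ccr1 and Ccr2) against 3.95%. On day 7, 7 members were above background, of which 2 were higher (Ccl4 and Ccl5) against 3.12% of all genes and 2 were lower (Ccl2 and Ccr1) against 1.23%. By day 14 only Ccl5 was still higher, 1 of 8 against 3.15% of all genes, and 3 were lower (Ccl2, Ccl7 and Ccr1) against 1.57%. The median ratio of the members was 1.03, 0.03, -0.37 and -0.92 on days 1, 3, 7 and 14. The median of all genes was 0.02 to 0.05, which the loess curve sets by centring the ratios of each array near 0.

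**Figure D1:**
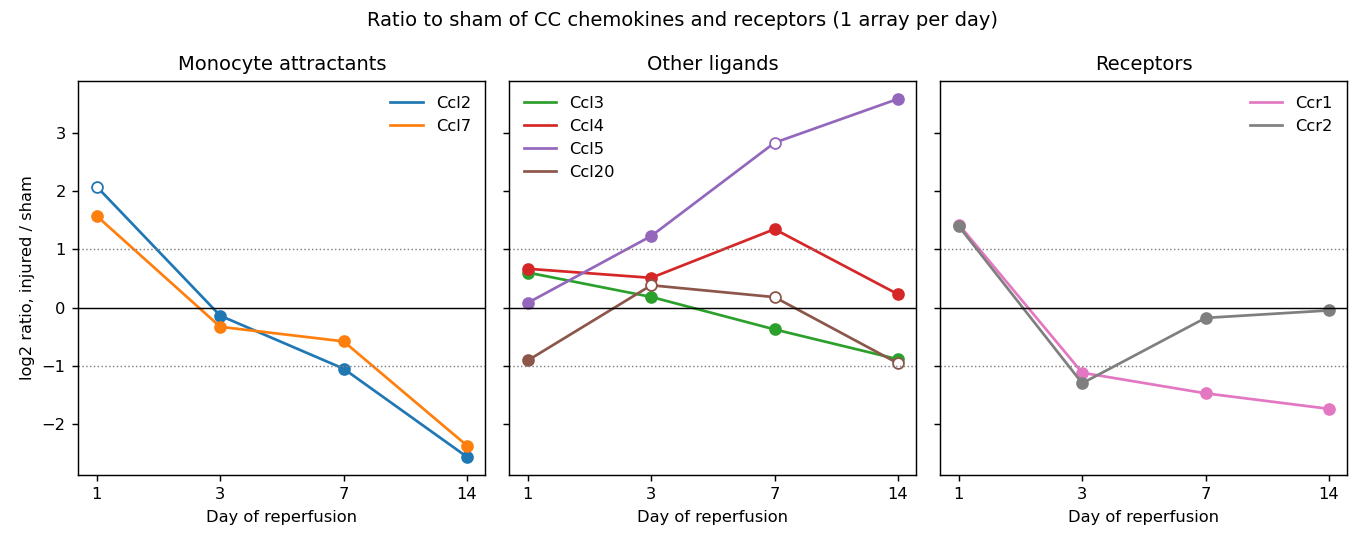
Log2 ratio of injured to sham muscle (vertical axis) against day of reperfusion (horizontal axis, days evenly spaced) for the 8 genes, 1 array per day; dotted lines mark 2-fold, and hollow points have a channel that was saturated or not well above background. Ccl2 and Ccl7 go from 2.08 and 1.57 on day 1 to -2.56 and -2.36 on day 14, while Ccl5 goes from 0.09 to 3.58.

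Ccl2, the principal ligand of Ccr2, had ratios of 2.08, -0.13, -1.04 and -2.56 on days 1, 3, 7 and 14. Its injured spot was saturated on day 1, so that value means at least 4.21-fold higher, and on day 14 it was 5.88-fold lower. Each later day was thus lower than the one before. The direction of day 3, close to sham here, turned with median centring (1.02) and with the mean of the 4 sham channels as reference (0.16).

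The channels show which muscle the change came with. The normalized log2 level of Ccl2 in injured muscle was 14.92, 13.63, 12.76 and 10.92 on days 1, 3, 7 and 14, a fall of at least 16.0-fold from day 1 to day 14, since the spot of day 1 was saturated. In the sham channels it was 12.84, 13.76, 13.81 and 13.47, or 13.47 ± 0.45 (SD, n = 4). The steps between consecutive days in injured muscle, at least 1.29, then 0.86 and 1.85, were larger than that SD. The low sham level of day 1, however, adds to the ratio of that day. For every member the sham SD describes the sham channels only and does not measure the spread between injured animals. With the mean of the 4 sham channels as reference Ccl2 was at 1.45 on day 1 and at -0.71 on day 7, where it no longer passed 2-fold.

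Ccl7, which also binds Ccr1 and Ccr3, followed Ccl2. Its ratios by the brighter probe were 1.57, -0.33, -0.58 and -2.36, that is 2.97-fold higher on day 1 and 5.14-fold lower on day 14. The other probe, the one printed above, gave 1.57, -0.30, -0.62 and -2.39. Both probes thus differed by at most a few hundredths of a log2 unit on every day, although they share part of their sequence and are not independent.

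In injured muscle the level of Ccl7 was 13.62, 11.41, 11.19 and 9.59 on days 1, 3, 7 and 14, 16.3-fold lower on day 14 than on day 1. In sham muscle it was 12.04, 11.73, 11.77 and 11.95 (11.87 ± 0.15, SD, n = 4). The fall in injured muscle came in steps of 2.21 between days 1 and 3 and 1.60 between days 7 and 14, with only 0.21 between days 3 and 7. The sham level stayed within 0.31, so the ratio of Ccl7 moved with the injured channel.

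Ccl3, a ligand of Ccr1 released by activated macrophages, did not pass 2-fold on any day with loess. Its ratios were 0.60, 0.19, -0.37 and -0.88, with injured levels of 11.48, 10.69, 9.68 and 9.53 and sham levels of 10.88, 10.51, 10.05 and 10.41. They ran down in the order of the days as for Ccl2 and Ccl7, over a range of 1.49 against at least 4.63 for Ccl2 and 3.93 for Ccl7. Other processing did call it: median centring on days 1 (1.88) and 3 (1.14), the mean sham reference on day 1 (1.02) and the deposited ratio on day 14 (-1.01). Within the injured channel Ccl3 was 3.87-fold lower on day 14 than on day 1, while days 7 and 14 differed by 0.14, less than its sham SD of 0.34.

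Ccl4, a close relative of Ccl3, was above sham on 4 of 4 arrays, with ratios of 0.67, 0.51, 1.35 and 0.23. With loess it passed 2-fold on day 7 only, at 2.55-fold higher. It also passed on day 1 by the deposited ratio (1.14) and on days 1 and 3 with median centring (1.39 and 1.09). Its injured level was 8.05, 7.82, 9.08 and 7.49, and its sham level 7.38, 7.31, 7.73 and 7.26 (7.42 ± 0.21, SD, n = 4). Ccl4 is thus the member with a peak on day 7: it rose 2.39-fold in injured muscle from day 3 to day 7 and was 3.01-fold lower on day 14 than on day 7. The neighbouring gene Ccl3 went the other way between days 3 and 7, 2.02-fold down in the injured channel.

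Ccl5, also called RANTES and made by activated T cells and natural killer cells, took the opposite course to Ccl2. Its ratios were 0.09, 1.23, 2.83 and 3.58 on days 1, 3, 7 and 14. The 3 later values mean 2.35-fold higher, at least 7.11-fold higher (the sham spot was not well above background on day 7) and 11.97-fold higher. With loess the gene was near sham on day 1 and past 2-fold on each array after that. Since day 7 is a lower bound, days 7 and 14 cannot be ranked. By the deposited ratios Ccl5 was at 0.53, 1.96, 4.49 and 4.45.

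In injured muscle the level of Ccl5 was 6.98, 8.40, 10.07 and 10.98, a 15.9-fold rise from day 1 to day 14. In sham muscle it was 6.90, 7.17, 7.24 and 7.39 (7.17 ± 0.21, SD, n = 4). The steps in the injured channel, 1.42, 1.67 and 0.90, all exceeded that SD, which is not the spread between injured animals. The sham level moved by 0.50 in all. With the mean of the sham channels as reference the ratio of day 1 turned to -0.19, and the later ones were 1.22, 2.90 and 3.80.

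Ccl20 was close to background throughout, and little can be said of it. Its ratio was -0.90 on day 1, when both channels were measured. On day 3 the sham spot was not well above background so that the ratio of 0.39 is a lower bound. On day 7 neither channel was well above background, and on day 14 the injured spot was not, so the muscle was at least 1.93-fold below sham. Its sham level ranged over 1.40, the widest among the members, and its deposited ratios of -1.94 on day 1, 1.09 on day 3 and -4.83 on day 14 differ in size from those here by 0.71 or more.

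**Figure D2:**
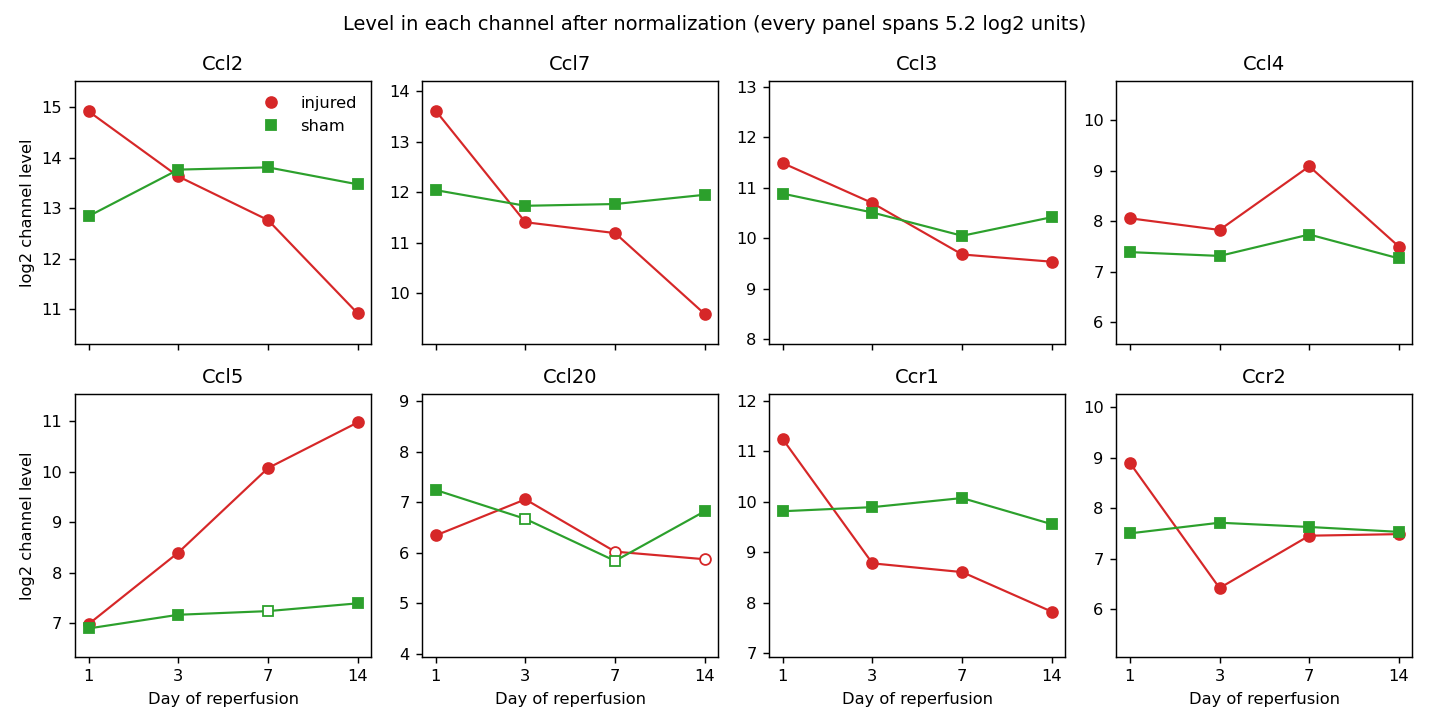
Normalized log2 level in the injured channel (circles) and the sham channel (squares) against day of reperfusion, 1 panel per gene; hollow symbols were not well above background, and levels of different genes are not comparable. The injured level of Ccl2 falls from 14.92 to 10.92 and that of Ccl5 rises from 6.98 to 10.98, whereas their sham levels stay within 0.97 and 0.50.

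The contrast between the monocyte attractant Ccl2 and Ccl5 can be read within each array. The log2 ratio of Ccl5 minus that of Ccl2 was -1.99, 1.37, 3.87 and 6.14 on days 1, 3, 7 and 14. The gap is at least that wide on day 1, where Ccl2 was saturated, and on day 7, where the sham spot of Ccl5 was dim. Under the 4 other ways of processing it was -3.15 to -1.51 on day 1, 0.85 to 2.10 on day 3, 3.59 to 6.26 on day 7 and 6.0 to 7.17 on day 14. The order of both genes therefore changed between days 1 and 3 in every case. Ccl5 minus Ccl7 was -1.49, 1.56, 3.41 and 5.94, and Ccl4 minus Ccl2 was -1.41, 0.65, 2.39 and 2.79. These are differences between 2 ratios of 1 array and carry no test. Ccl2 minus Ccl7 was at least 0.50 on day 1 and then 0.19, -0.47 and -0.19. With the mean sham reference this difference was at least -0.30 on day 1, a lower bound that leaves its sign undecided in that setting. By the deposited ratios it was -1.28 on day 7.

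Ccr1, a receptor for Ccl3, Ccl5 and Ccl7 on monocytes and neutrophils, had ratios of 1.43, -1.11, -1.47 and -1.73. It was 2.69-fold higher on day 1 and 3.32-fold lower on day 14. Its level in injured muscle was 11.24, 8.78, 8.61 and 7.83, and in sham muscle 9.82, 9.90, 10.08 and 9.56 (9.84 ± 0.22, SD, n = 4). Most of the fall came between days 1 and 3 (5.50-fold in the injured channel), and days 3 and 7 differed by 0.17, less than the sham SD.

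Ccr2, the receptor that lets monocytes leave the bone marrow toward Ccl2 and Ccl7, had ratios of 1.40, -1.29, -0.17 and -0.04. It was 2.63-fold higher on day 1 and 2.45-fold lower on day 3. The size of the day 3 value depended on the processing. It was -2.41 by the deposited ratio, -2.05 with an offset of 0 and -0.90 with median centring. The injured spot was dim that day, at a level of 6.42 where the lowest signal well above background was 5.77. The injured level was 8.90, 6.42, 7.46 and 7.49, against 7.50, 7.71, 7.63 and 7.53 in sham muscle (7.59 ± 0.10, SD, n = 4). Ccr2 thus shared the rise of day 1 and the fall of day 3 with Ccr1, 5.57-fold between these days, but was back at the sham level on days 7 and 14 where Ccr1 was not.

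Across the injured channels, 1 of 8 members rose at least 2-fold from day 1 to day 3 (Ccl5; 3.19% of all genes) and 4 fell (Ccl2, Ccl7, Ccr1 and Ccr2; 2.49%). From day 3 to day 7, 3 of 8 rose (Ccl4, Ccl5 and Ccr2, against 4.7% of all genes) and 2 fell (Ccl3 and Ccl20, against 5.04%). The fall of Ccl20 ends on an injured spot that was not well above background on day 7. Ccl3 (-1.02) and Ccr2 (1.04) only just passed 2-fold, where the injured level of day 7 had an SD of 0.45 between spots. From day 7 to day 14, 0 of 7 rose (4.59%) and 3 fell (Ccl2, Ccl7 and Ccl4; 2.14%). Between days 1 and 14 only Ccl5 rose (7.61% of all genes), and 5 fell (Ccl2, Ccl7, Ccl3, Ccr1 and Ccr2; 5.41%).

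In the sham channels 0 members changed 2-fold between these days, of 7 from day 3 to day 7, where the sham spot of Ccl20 was dim on both days, and of 8 in each other pair. Among all genes 0.142% rose and 0.822% fell from day 1 to day 3, 0.149% rose and 4.7% fell from day 3 to day 7, 4.53% rose and 0.181% fell from day 7 to day 14, and 0.223% rose and 0.538% fell from day 1 to day 14. The sham channels of the arrays correlated at r = 0.973 to 0.993 across genes, which are not independent replicates.

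A shift common to the 4 days was tested as the mean ratio over the arrays against 0; a trend over the days was not tested. The mean passed for 0 of the 7 members measured on every array, by limma with Benjamini-Hochberg adjustment over 20531 genes, of which 37 passed (0.0244% higher and 0.156% lower). At an unadjusted p under 0.05 there were 2 members, among 4468 genes. They were Ccl4, with a mean of 0.69 (SE 0.20, adjusted p = 0.169), and Ccl5, with a mean of 1.93 (SE 0.63, adjusted p = 0.195), both above 0 on 4 of 4 days. The means of Ccl2 (-0.41, adjusted p = 0.77), Ccl7 (-0.42, 0.72), Ccl3 (-0.12, 0.82), Ccr1 (-0.72, 0.49) and Ccr2 (-0.03, 0.98) join days of opposite sign. With each array centred on its median in place of loess, 8527 genes passed, and Ccl4 (mean 1.27, adjusted p = 0.014) and Ccl5 (mean 2.50, adjusted p = 0.039) were among them.

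The way the dyes were balanced moved each member other than Ccl20 more than the median gene, and Ccl2 and Ccl7 the most. Centring each array on its median in place of the loess curve raised the median of all genes by 0.22 to 0.35, from 0.02 to 0.05 up to 0.27 to 0.37. It raised Ccl2 by 0.79 to 1.52 and Ccl7 by 0.73 to 1.42, so that Ccl2 was at 3.60, 1.02, -0.15 and -1.76 and Ccl7 at 3.00, 0.70, 0.22 and -1.64. The rise of day 1 and the fall of day 14 kept their direction and passed 2-fold for both genes, while on day 3 both were above sham and the lower call of Ccl2 on day 7 was lost.

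Ccr1 under median centring was at 2.63, -0.24, -0.80 and -1.11, and Ccr2 at 2.26, -0.90, 0.27 and 0.42. Of the 15 member values past 2-fold, 11 kept both direction and call with this centring, 15 with the deposited ratios, 15 with a normexp offset of 0 and 14 with the mean of the 4 sham channels as reference. These settings newly called 6, 5, 2 and 1 other member values. The lost calls under median centring were Ccl2 on day 7, Ccr1 on days 3 and 7, and Ccr2 on day 3. Among all genes past 2-fold the share that was higher was 20.2%, 38.5%, 71.7% and 66.8% on days 1, 3, 7 and 14. It was 92.0%, 91.4%, 97.2% and 96.7% with median centring, 58.4%, 67.4%, 68.2% and 72.8% by the deposited ratios, 33.5%, 51.0%, 74.4% and 66.9% with an offset of 0, and 33.9%, 46.9%, 54.7% and 64.0% with the mean sham reference. The loess curve sets each ratio relative to genes of like brightness on the array, and the later falls of Ccl2, Ccl7, Ccr1 and Ccr2 are falls in that sense.

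**Figure D3:**
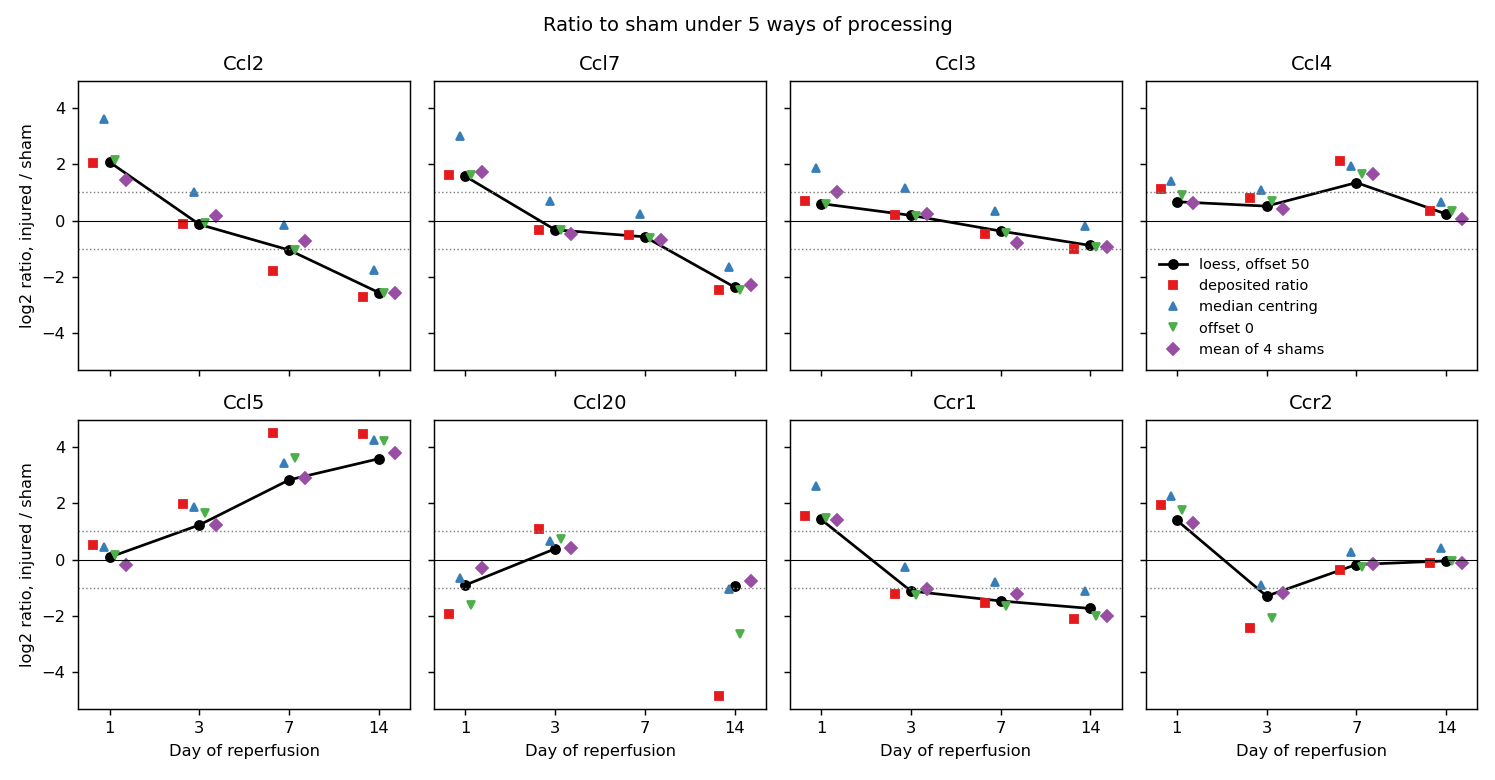
Log2 ratio of injured to sham against day of reperfusion for each gene under 5 ways of processing: loess after normexp with offset 50 (black line), the deposited ratio, median centring, offset 0, and the mean of the 4 sham channels as reference; dotted lines mark 2-fold, and Ccl20 on day 7, not above background, is left out. Triangles of median centring lie above the line for Ccl2 (3.60 against 2.08 on day 1), and Ccl5 is at 3.58 or more on day 14 in every setting.

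The other CC chemokines were mixed in direction. Of 12 other CC chemokine genes on the array, 11 were measured on each day, and 2, 0, 1 and 2 were at least 2-fold higher and 1, 1, 0 and 0 lower on days 1, 3, 7 and 14. Their medians were 0.00, -0.43, 0.16 and 0.13. Among all genes 1.24%, 2.47%, 3.12% and 3.15% were higher and 4.92%, 3.95%, 1.23% and 1.57% lower on these days. By the deposited ratios the counts of the list were 2, 1, 2 and 3 higher and 3, 3, 2 and 0 lower. With median centring they were 2, 0, 3 and 4 higher and 0 lower, and the median of day 3 turned to 0.04. Of the 22949, 24468, 23489 and 23744 genes measured, 2752, 3753, 4057 and 4078 were higher by the deposited ratios and 1959, 1817, 1892 and 1525 lower. With median centring 5003, 4198, 2724 and 2886 genes were higher and 433, 395, 78 and 98 lower. The counts of every list below are to be read beside the shares of all genes for the same day and setting. Ccl9 was not above background on any day.

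Ccl12, a further ligand of Ccr2 whose probe lies 53.6 kb from that of Ccl7, had ratios of 2.06, -0.82, 1.59 and -0.38. It shared the rise of Ccl2 and Ccl7 on day 1 but was 3.01-fold above sham on day 7, when they were below it. Ccl6, a myeloid chemokine that binds Ccr1, was at 1.19, -0.90, 0.88 and 0.91. The ligands of Ccr7, which guide T cells and dendritic cells to lymph nodes, were called on different days: Ccl19 was at -0.48, -0.43, 0.81 and 2.42, and Ccl21 at -1.69, -1.49, -0.10 and 0.43. Ccl11, the eosinophil attractant eotaxin, reached 1.00 on day 14.

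Of 13 other receptors, scavengers and related genes on the array, 9, 10, 13 and 11 were measured on days 1, 3, 7 and 14. There were 0, 0, 2 and 2 at least 2-fold higher and 0 lower on any day, with medians of 0.09, 0.01, 0.06 and 0.21. The sham spot was dim for 4, 7, 10 and 7 of the measured genes, which entered through the injured channel. By the deposited ratios 1, 1, 4 and 5 were higher and 1 was lower on day 14, with medians of 0.57 and 0.78 on days 7 and 14. By these ratios 2752 of 22949, 3753 of 24468, 4057 of 23489 and 4078 of 23744 genes measured were higher on the 4 days. The counts of 1 on days 1 and 3 were thus below the share of all genes. The medians of all genes were 0.23 and 0.12 on days 7 and 14. Cx3cl1, the membrane-bound chemokine fractalkine, was at 0.10, 0.92, 1.37 and 1.76, and Xcl1, made by activated T cells and natural killer cells, at 0.20, 0.10, 1.36 and 1.69, lower bounds because its sham spot was dim on every day. Both were thus above 2-fold on days 7 and 14, as Ccl5 was. Ccr6, the receptor of Ccl20, was above background on day 7 only, at -0.12.

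**Figure D4:**
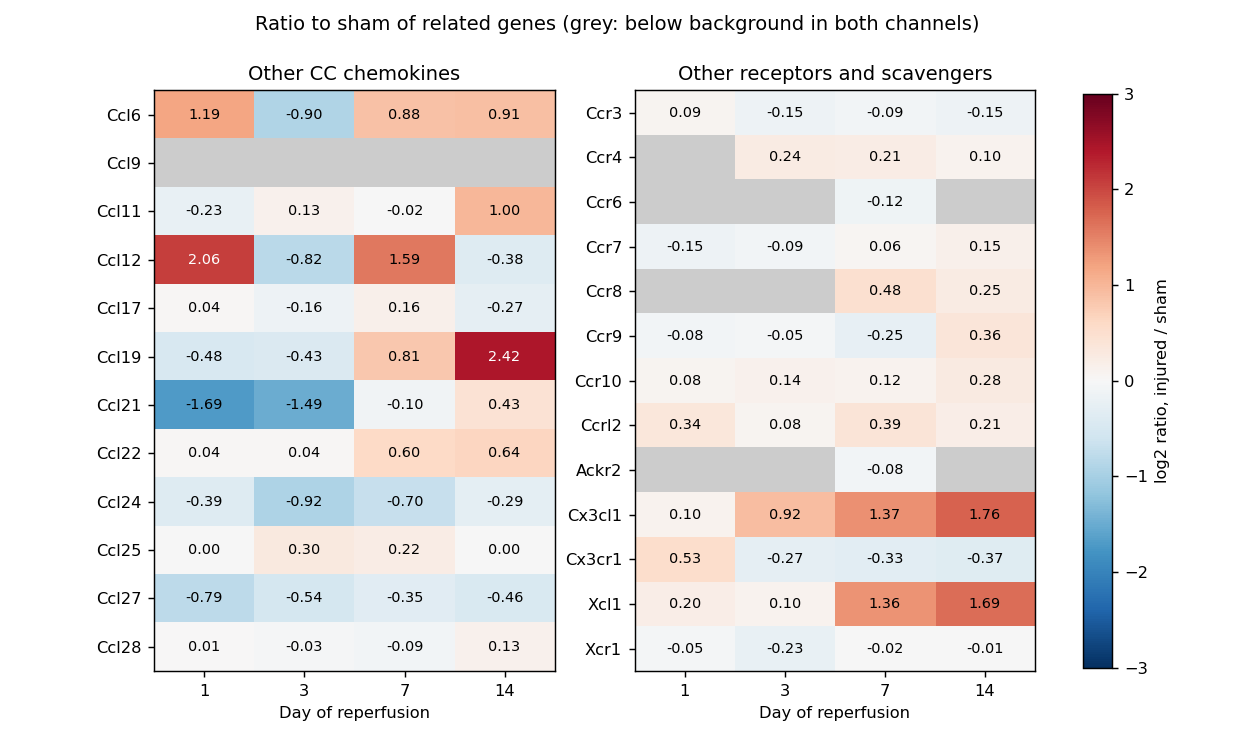
Log2 ratio of injured to sham for the other CC chemokines (left) and for other receptors, scavengers and related genes (right) on each day of reperfusion, red for higher and blue for lower in injured muscle, with the value written in each cell; grey cells were not well above background in either channel. Ccl12 stands at 2.06 on day 1 and 1.59 on day 7, and Ccl19 at 2.42 on day 14.

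Markers of the cells that carry these receptors moved on the same arrays. In a bulk sample more cells of a type and more RNA per cell cannot be told apart. Of 11 measured monocyte and macrophage markers, 6, 1, 3 and 0 were at least 2-fold higher and 0, 2, 3 and 5 lower on days 1, 3, 7 and 14, with medians of 1.03, -0.07, -0.30 and -0.89. The summed log2 level of the list was 16.78, 15.82, 16.12 and 15.32 in injured muscle and 15.70 to 15.86 in sham muscle. All 11 were above background in both channels on every day, and the injured spot of Lyz2 was saturated on day 1. The list fell with Ccl2, Ccl7 and Ccr1 in its median, but not in each gene: Adgre1, a surface receptor of mature macrophages, was at 0.51, 0.56, 1.57 and 0.98, and Cd163, a receptor of resident macrophages, at -0.45, -1.88, -1.95 and -2.50. With median centring the medians were 2.46, 0.99, 0.60 and -0.42, above 0 until day 7. The counts were then 10, 5, 5 and 1 higher and 0, 1, 1 and 3 lower. In that setting 5003 of 22949, 4198 of 24468, 2724 of 23489 and 2886 of 23744 genes were higher, and 433, 395, 78 and 98 were lower. The 1 higher marker of day 14 was thus below the share of all genes.

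Of 7 neutrophil markers on the array, 3, 0, 0 and 0 were higher and 0, 0, 2 and 2 lower, with medians of 0.80, -0.18, -0.22 and -0.46. By the deposited ratios 6 were higher on day 1 and 5 lower on day 14 (medians 1.61 and -1.55). With median centring 6 were higher on day 1, and the median of day 3 turned to 0.51. The summed log2 level was 13.52, 11.27, 10.41 and 9.54 in injured muscle. In sham muscle it was 11.28, 11.45 and 11.22 on days 1, 3 and 7 and lowest on day 14, though still above the injured level of that day. S100a8 and S100a9, the most abundant neutrophil cytosol proteins, were at 2.50 and 2.62 on day 1 and at -2.82 and -2.57 on day 14. Mpo, the primary granule enzyme myeloperoxidase, was between -0.18 and -0.06, with its sham spot dim on every day.

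A minority of T cell markers were higher on days 7 and 14, when Ccl5 was. Of 11 on the array, 7, 8, 9 and 10 were measured on days 1, 3, 7 and 14. Of these 0, 0, 3 and 3 were at least 2-fold higher and 0, 1, 1 and 1 lower, with medians of 0.20, 0.09, 0.50 and 0.56. The sham spot was dim for 2, 3, 4 and 5 of the measured markers, which entered the counts and medians through the injured channel. Among those called higher, 0 had a dim sham spot. The 3 that were higher were Cd3g and Cd3d, chains of the T cell receptor complex, and the signalling kinase Zap70; Cd3g was at 0.09, 0.27, 2.89 and 3.44, and Cd3d at 0.09, 0.28, 2.00 and 2.65.

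Most of the T cell list stayed within 2-fold, 5 of 9 on day 7 and 6 of 10 on day 14. Cd8a was the lower one, at -1.65, -1.57 and -1.88 on days 3, 7 and 14, Cd3e was above background on day 14 only, and Cd28 on no day. The summed log2 level of the T cell list was 12.16, 11.17, 12.74 and 12.85 in injured and 11.71 to 11.94 in sham muscle. In injured muscle Cd8a had the highest level on day 1 (11.13) and Cd3d on day 14 (11.27), so these sums rest on different genes. By the deposited ratios 6 and 8 of the markers were higher on days 7 and 14.

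Of 7 natural killer and cytotoxic cell markers, 0, 0, 5 and 6 were higher and none lower, with medians of 0.14, 0.22, 1.19 and 1.73. Only 3, 2, 2 and 2 were above background in sham muscle, so most entered the list's counts through the injured channel, and of those called, 3 on day 7 and 4 on day 14 are lower bounds (Klrd1 was at least 5.99-fold higher on day 14). By the deposited ratios 2, 3, 6 and 6 were higher. Their summed log2 level was 9.62, 9.60, 11.09 and 11.39 in injured muscle and 9.43 to 9.74 in sham muscle. Ncr1, a receptor that defines natural killer cells, was between -0.09 and 0.07. The part of any of these cell types in the ratios of the chemokine genes was not tested.

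Muscle fibre genes moved on the same arrays too. All 8 fibre markers were lower on days 1 and 3, with medians of -3.19 and -4.30. On day 7, 1 was higher and 2 were lower, and on day 14, 4 were higher and none lower, with medians of -0.53 and 0.72. The median of day 7 turned to 0.43 with median centring. That of day 14 was 1.64 with median centring (8 higher) and 0.01 with the mean sham reference (2 higher). Their summed log2 level in injured muscle was 15.60, 14.58, 17.57 and 18.36, against 17.54 to 18.86 in sham muscle. Injured spots of 2 of these genes were saturated on day 7 and of 4 on day 14, and the sham spot of Tnnc2 on days 1 and 3, so these sums are too low by an unknown amount. The part of fibre RNA in the chemokine ratios was not tested.

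**Figure D5:**
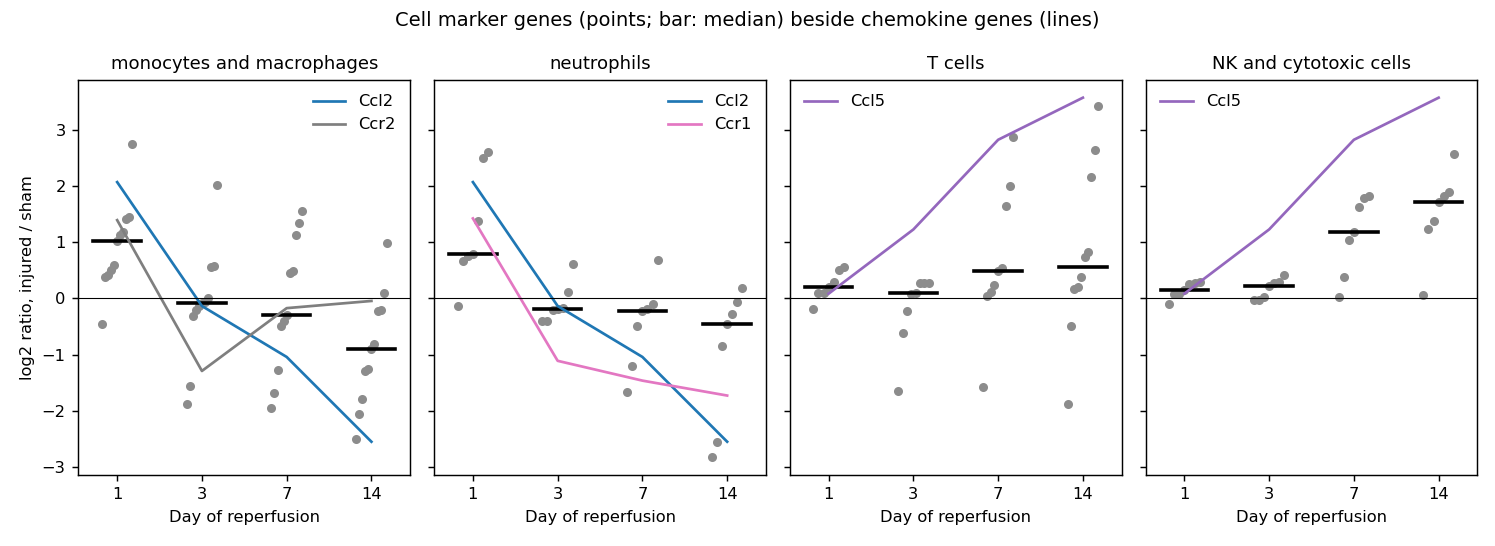
Log2 ratio of injured to sham against day of reperfusion for each measured marker gene (grey points) with the median of the list (black bar), and for the chemokine genes named in each panel (coloured lines). The medians of the monocyte and macrophage list go from 1.03 to -0.89 with Ccl2, and those of the natural killer and cytotoxic list from 0.14 to 1.73 with Ccl5.

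The genes with the ratios nearest to those of Ccl2 over the 4 days, by Euclidean distance among 10800 genes with a symbol, were S100a9 (distance 0.62), Arg1 (0.71), Ccl7 (0.74), S100a8 (0.81) and Cxcl1 (0.91), against a median distance of 3.53 for all. The ratio of Ccl2 on day 1 is a lower bound, so these distances and their order are not fixed by the data. Arg1 is arginase, an enzyme of macrophages and neutrophils, and Cxcl1 is a neutrophil attractant. Nearest to Ccl5 were Cd3g (0.97), Aspn (1.05), C4a (1.06), Gzmm (1.09) and Ifi27l2b (1.09), against a median of 4.73, with the ratio of Ccl5 on day 7 being a lower bound too. Cd3g and Gzmm, a granzyme, are genes of T and cytotoxic cells, Aspn encodes the matrix protein asporin and C4a a complement component. With 4 arrays these distances only describe the likeness of the courses.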

How the data were processed

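The deposited files are scanner output of 4 two-colour arrays, extracted with Feature Extraction 10.5.1.1 per the file headers (9.5.3 per the submitters' processing notes). Each deposited intensity is a spot's mean brightness with its median local background, not normalized. The deposited LogRatio is log10 of Cy5 over Cy3 after the software's background subtraction and dye normalization, as the file headers state. The deposited value table holds log2 ratios; over 40972 probes with 1 spot it differed from LogRatio times log2(10) by at most 0.005 (r = 1, median 0 in each column), so its scale and direction are known. Coordinates are rn4, per the file headers.

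Intensities were corrected with normexp (offset 50) and loess in R 4.3.3 with limma 3.58.1, control and outlier spots given no weight. Channel levels come from Aquantile after loess. Each gene was read by its brightest probe and counted as measured on days with at least 1 channel well above background; saturated spots were kept. A member's fold with a dim or saturated channel is given as at least N-fold, and its log2 ratio as measured, a dim channel taking the lowest signal of all probes well above background if its own was below that. A summed level is log2 of the sum of the linear levels of the list's genes. It is set mostly by the brightest probes of a list, although levels of different probes are not comparable. The mean ratio of the 4 arrays was tested against 0 with lmFit and eBayes at an adjusted p of 0.05; it leaves out the spread of the sham animals. The methods were tested on simulated data with as many genes raised as lowered, which cannot decide between loess and median centring on these arrays. Names were matched to RefSeq genes (GRCr8, names only) for 10835 probes by accession, 5196 by current symbol and 3478 by older symbol; the other 21503 kept the name in the file.

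The genes named are all 8 members, other family genes at least 2-fold from sham on a day, and the 5 genes nearest in pattern to Ccl2 and to Ccl5; single marker genes, and family genes short of 2-fold, were chosen after their values were seen. Members and lists were chosen with earlier results of these data known; after the data were seen, the probe named Ela2 was left out because its name matched Cela2a and not the neutrophil gene Elane. Further, 2 list genes are not reported here, and the list counts leave them out. Alternatives were the deposited ratios, median centring, an offset of 0, the mean of the sham channels, the median probe and other filters on dim probes; their use for the marker and family lists and for the difference between Ccl5 and Ccl2 was added after seeing the data.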

Additional observations from a re-analysis of the deposited data

Results flagged for a closer look

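Of the 8 genes 4 passed 2-fold in both directions, above sham on one day and below it on another. Ccl2 was at 2.08 on day 1 and -2.56 on day 14, and Ccl7 at 1.57 and -2.36. Ccr1 was at 1.43 on day 1 and -1.73 on day 14, and Ccr2 at 1.40 on day 1 and -1.29 on day 3. With 1 array per day the difference between days was not tested for any of them.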

How the results depend on the processing

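No paired analysis was possible because each day has 1 array and the groups share only the number 1. Of the counts of members past 2-fold, these moved by more than 1.5 times. The 0 lower members of day 1 became 1 by the deposited ratios and 1 with an offset of 0 (Ccl20 in both). The 1 higher member of day 3 became 2 by the deposited ratios and 4 with median centring, which also took the 2 lower members of day 3 to 0 and the 2 of day 7 to 0. The 2 higher members of day 7 became 1 where both channels had to be above background, the 2 lower ones became 1 with the mean of the sham channels as reference, and the 3 lower members of day 14 became 5 by the deposited ratios. The mean over the arrays passed for 0 members with loess and 2 with median centring, and for 0 in each fit that left out an array, in which 0 to 8 genes passed and the lowest adjusted p of a member was 0.10 to 0.40. It passed for 37 genes in the main setting, 777 by the deposited ratios and 8527 with median centring. Genes at least 2-fold higher numbered 285, 605, 734 and 747 on days 1, 3, 7 and 14, against 2752 to 4078 by the deposited ratios and 2724 to 5003 with median centring; lower genes numbered 1128, 966, 289 and 372, against 1525 to 1959 and 78 to 433. Of 31 member values, 31 kept their sign by the deposited ratios, 31 with an offset of 0, 29 with the mean sham reference and 25 with median centring, and none past 2-fold changed sign. Dim spots limit Ccl20 on days 3, 7 and 14 and the sham level of Ccl5 on day 7, and saturation limits Ccl2 on day 1.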

Other observations

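Before any normalization the mean brightness of the Ccl2 spot in the injured channel was 65535, 20278, 9029.7 and 2644 on days 1, 3, 7 and 14, the first of these being the scanner's ceiling. In the sham channel it was 4562, 8512, 8589.5 and 8509. The raw injured brightness of Ccl2 on days 3 and 7 was thus above the raw sham brightness, while the normalized ratios were -0.13 and -1.04. For Ccl5 the injured brightness was 188.7, 499.9, 1268 and 2493 and the sham brightness 95.6, 104, 90.7 and 129. The injured brightness of the Ccl2 spot on day 14 was thus below its sham brightness without any normalization. That of the Ccl5 spot was above its sham brightness on all 4 days. Raw brightness can differ in this way without a normalized difference. The Ccr2 spot of day 14 had 224.1 in the injured and 149.9 in the sham channel, at a ratio of -0.04. For Ccl5 on day 1 the raw values therefore do not show a difference from sham.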
